A study of Mus musculus with 9 samples.

Results

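This account concerns 10 genes of bone morphogenetic protein (BMP) signaling in fetal mouse urogenital sinus (UGS) mesenchyme cells exposed to estradiol (E2): the ligand genes Bmp2, Bmp4 and Bmp7, the antagonist genes Grem1, Nog and Chrd, the protease gene Tll1, and the target genes Id1, Id2 and Id3. They were chosen by symbol, with earlier results of these data known, from the 19938 genes on the arrays that could be named. The probeset of highest mean over all arrays stood for a gene, and each of the 10 had 1 such probeset. The cells came from male CD-1 fetuses of gestation day 17, were separated from the epithelium and used as primary cultures at first passage. After 3 days in hormone-stripped serum with 690 pM dihydrotestosterone (DHT), they were cultured for 4 days with ethanol vehicle, 10 pM E2 or 100 pM E2, on 3 arrays per group and 9 in all. DHT at 690 pM was present in all 3 groups, so every comparison concerns E2 added to androgen and no group lacked androgen. The epithelial fraction was discarded before culture, so a response of the epithelium to the mesenchyme was not studied. Whether some epithelial cells remained was not tested here, and RNA from all cells of a dish was measured together. Values are log2 signals on Affymetrix Mouse Gene 1.0 ST arrays.

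BMPs are secreted ligands that bind pairs of serine/threonine kinase receptors, which phosphorylate the receptor Smads; these join Smad4, enter the nucleus and activate target genes, of which the Id genes, encoding inhibitors of DNA binding, are the most widely used readouts. Gremlin 1, noggin and chordin, the products of Grem1, Nog and Chrd, bind the ligands outside the cell and keep them from their receptors, and tolloid-like 1, the product of Tll1, is a secreted metalloprotease of the family that cleaves chordin. In the developing mouse prostate, mesenchymal BMP4 and BMP7 are known as inhibitors of ductal budding and branching.

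Expression of Grem1 and Tll1 was higher at 100 pM E2 than in vehicle cells and than at 10 pM E2, and these 2 of the 10 genes passed the test, against 1.13% of all genes called between 100 pM E2 and vehicle and 0.833% between 100 pM and 10 pM E2. The upstream sequences of these genes are shown because they were the members that changed. RefSeq windows (GRCm38.p6) were held for 6 of the 10 genes, namely Bmp4, Grem1, Chrd, Tll1, Id2 and Id3. Grem1 lies on chromosome 2 at 113748675 to 113758648 and Tll1 on chromosome 8 at 64013098 to 64206008, both on the minus strand. The 250 bases before the annotated start of each, at chr2:113758649-113758898 and chr8:64206009-64206258, are given 5′ to 3′ along the gene, and capitals mark the single arm of the estrogen response element, TGACC or its reverse complement GGTCA.
Grem1: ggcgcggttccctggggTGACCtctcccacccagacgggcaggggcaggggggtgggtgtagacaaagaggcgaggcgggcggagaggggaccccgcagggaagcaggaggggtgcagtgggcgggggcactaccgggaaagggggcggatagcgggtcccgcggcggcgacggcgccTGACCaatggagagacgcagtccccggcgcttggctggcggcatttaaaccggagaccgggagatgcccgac
Tll1: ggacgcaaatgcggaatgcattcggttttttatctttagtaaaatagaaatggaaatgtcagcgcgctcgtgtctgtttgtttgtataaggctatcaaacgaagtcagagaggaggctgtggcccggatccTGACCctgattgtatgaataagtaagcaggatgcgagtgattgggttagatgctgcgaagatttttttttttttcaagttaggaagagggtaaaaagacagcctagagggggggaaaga
The single arm occurred 2 times in the Grem1 window, starting 233 and 72 bases before the start, and 1 time in that of Tll1, 119 bases before it. Chrd also had 1, and Bmp4, Id2 and Id3 had none. Of all 32851 windows of this length in the table, 35.2% held the single arm. The full palindromic element GGTCANNNTGACC, which contains 2 such arms, was in 0.0639% of the windows and in none of these 6. The GC-rich Smad motif GGCGCC was present 1 time each in the Grem1, Chrd and Id2 windows, and in 9.59% of all windows. In Grem1 it adjoins the arm nearer to the start. The short Smad box GTCT or AGAC was in all 6 and in 82.9% of all windows. A match of letters is a description and not a measured binding site.

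Counted together, 2 of the 10 genes were called higher and none lower between 100 pM E2 and vehicle. Of all 19938 genes, 1.13% were called in either direction and 0.446% higher. The 10 genes were chosen with earlier results of these data known, so setting them beside these shares is no independent test. By sign alone, 4 of the 10 were higher and 6 lower. An unadjusted limma p below 0.05 was found for 5 of them, against 2164 of all genes. By size of rise, Tll1 ranked 19 and Grem1 ranked 20 among all genes in that comparison. In 2 of the 10 the arrays of 100 pM and vehicle did not overlap, against 12.5% of all genes. Between 10 pM E2 and vehicle none of the 10 was called by limma, and 0 had an unadjusted p below 0.05, against 0% of all genes called, where 705 genes had an unadjusted p below 0.05 and the smallest adjusted p was 0.160. By sign alone 8 of the 10 were higher there and 2 lower, with differences between -0.12 and 0.11. Tll1 was the 1 gene of the 10 whose arrays did not overlap in that comparison, against 5.93% of all genes. Between 100 pM and 10 pM E2, 2 were called higher and none lower, against 0.833% of all genes called and 0.226% called higher. By sign alone 3 were higher and 7 lower, and 5 had an unadjusted limma p below 0.05, against 2028 of all genes. The arrays of 2 did not overlap, against 12.3% of all genes. In the F test 2 of the 10 were called, against 0.843% of all genes. The median difference of the 10 genes was -0.02 for 100 pM against vehicle, 0.04 for 10 pM against vehicle and -0.03 for 100 pM against 10 pM, beside 0.00 for all genes in each. The 3 comparisons share arrays in pairs, so their values are not independent of each other.

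**Figure D1:**
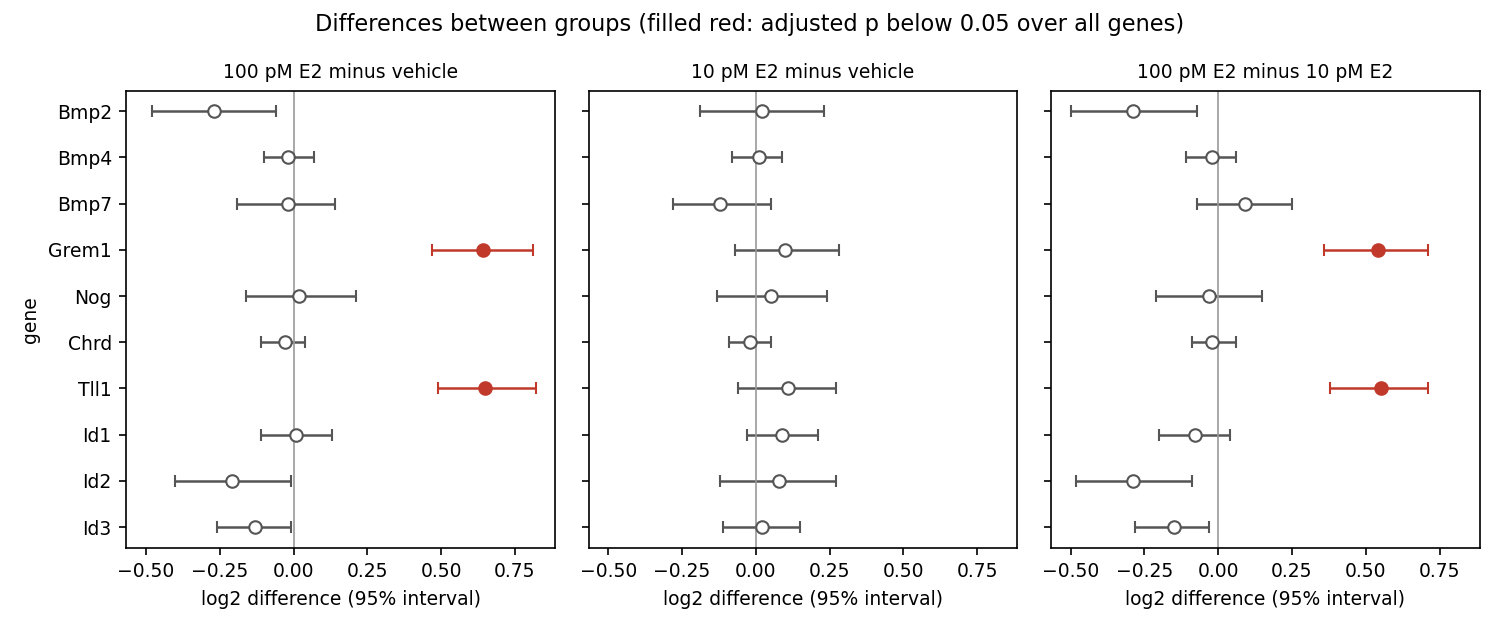
Log2 differences of the 10 genes (points) with 95% intervals (bars) in the 3 comparisons; filled red points have an adjusted p below 0.05 over all genes. Grem1 (0.64 and 0.54) and Tll1 (0.65 and 0.55) were called in both comparisons that involve 100 pM E2, and no gene was called at 10 pM E2 against vehicle.

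Among the antagonist genes, Grem1 (probeset 10485948) read 7.96, 8.18 and 7.99 in vehicle cells, 8.13, 8.10 and 8.21 at 10 pM E2, and 8.53, 8.75 and 8.76 at 100 pM E2. All 3 arrays at 100 pM lay above all other arrays, while those at 10 pM lay within or just above the vehicle range. Relative to vehicle, Grem1 rose by 0.64 ± 0.08 log2 units at 100 pM E2 (95% interval 0.47 to 0.81, limma adjusted p = 0.00577), or 1.56-fold. The SE and interval are the moderated ones from the fit of all 9 arrays, 3 in each group. At 10 pM the difference from vehicle was 0.10 (interval -0.07 to 0.28, adjusted p = 1.00). The direct comparison of 100 pM with 10 pM gave 0.54 (interval 0.36 to 0.71, adjusted p = 0.0163), or 1.45-fold. That last call was lost without any 1 of the 10 pM arrays (adjusted p = 0.0883, 0.0901 and 0.0632, in the order of their numbers) and without the second or the third 100 pM array (adjusted p = 0.0689 and 0.0511), while the difference stayed between 0.50 and 0.61. The F test over the 3 groups gave an adjusted p of 0.0109 and no longer called Grem1 without the second 100 pM array.

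The other antagonists did not pass the test at either dose. Nog (probeset 10389752) read 6.43, 6.43 and 6.30 in vehicle cells, 6.58, 6.24 and 6.50 at 10 pM E2, and 6.38, 6.43 and 6.43 at 100 pM E2. The groups overlapped, and the difference between 100 pM and vehicle was 0.02 (interval -0.16 to 0.21, adjusted p = 0.946). Chrd (probeset 10434528) read 6.72, 6.74 and 6.76 in vehicle cells, 6.72 on all 3 arrays at 10 pM E2, and 6.72, 6.68 and 6.72 at 100 pM E2. Its difference between 100 pM and vehicle was -0.03 (interval -0.11 to 0.04, adjusted p = 0.749), the narrowest interval of the 10 genes. The upper bounds for Nog and Chrd lie below the lower bound for Grem1, but differences between genes were not tested.

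Tll1 (probeset 10578880) read 8.25, 8.31 and 8.33 in vehicle cells, 8.33, 8.42 and 8.45 at 10 pM E2, and 8.84, 9.13 and 8.88 at 100 pM E2. The arrays at 100 pM stood clear of the rest, and those at 10 pM only just cleared the vehicle arrays. At 100 pM E2 Tll1 rose by 0.65 ± 0.07 log2 units relative to vehicle (moderated SE from all 9 arrays, 95% interval 0.49 to 0.82, limma adjusted p = 0.00399), or 1.57-fold. The difference between 10 pM and vehicle was 0.11 (interval -0.06 to 0.27, adjusted p = 1.00), so the lack of overlap at that dose did not amount to a call. Between 100 pM and 10 pM the difference was 0.55 (interval 0.38 to 0.71, adjusted p = 0.0134), or 1.46-fold, and the F test gave an adjusted p of 0.00831. Without 1 of the 10 pM arrays the comparison of the doses was no longer called (adjusted p = 0.0731, 0.0694 and 0.0580, in the order of their numbers), with differences of 0.51 to 0.57. Leaving out any single array ended neither gene's call against vehicle, where the adjusted p reached 0.0357 for Grem1 and 0.0327 for Tll1 at most. Both calls against vehicle were lost when only the compared groups were fitted (adjusted p = 0.0703 for Grem1 and 0.0589 for Tll1) and in the unmoderated analysis (adjusted p = 0.0710 and 0.0620).

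**Figure D2:**
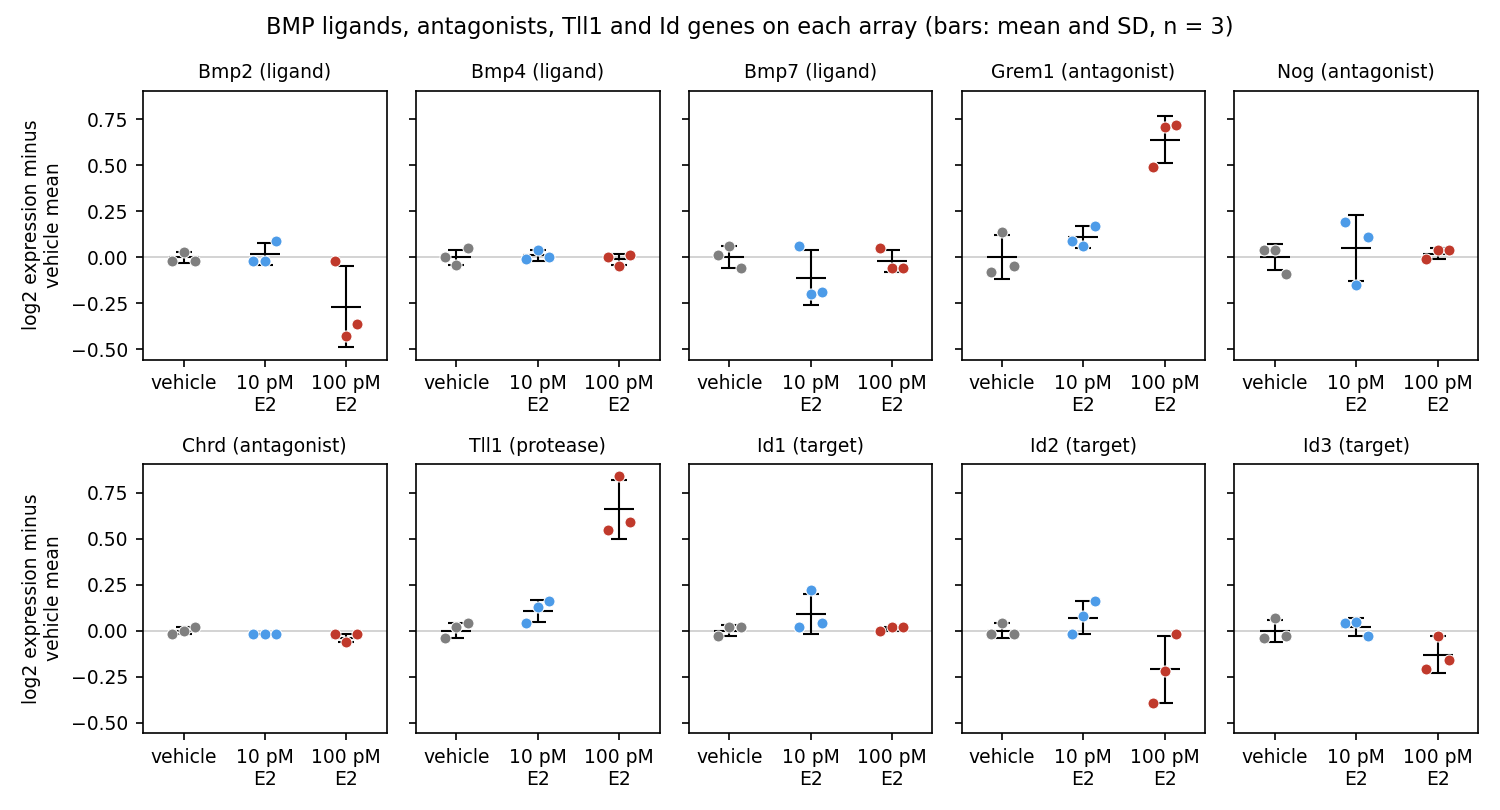
Log2 expression of each of the 10 genes minus its vehicle mean (vertical axis, log2 units, shared by all panels) on the 3 arrays per group (points; vehicle, 10 pM E2 and 100 pM E2 from left to right), with the group mean and SD as bars. Grem1 and Tll1 at 100 pM E2 lie above all their other arrays, while Bmp2, Id2 and Id3 have low points at 100 pM E2 that still overlap the other groups.

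The ligand genes did not pass the test. Bmp4 (probeset 10419261), a ligand made by the mesenchyme of this tissue, read 8.39, 8.35 and 8.44 in vehicle cells, 8.38, 8.43 and 8.39 at 10 pM E2, and 8.39, 8.34 and 8.40 at 100 pM E2. All 9 arrays thus fell between 8.34 and 8.44, and the interval of the difference between 100 pM and vehicle ran from -0.10 to 0.07 around -0.02 (adjusted p = 0.912). Bmp7 (probeset 10490129) read 6.02, 6.07 and 5.95 in vehicle cells, 6.07, 5.81 and 5.82 at 10 pM E2, and 6.06, 5.95 and 5.95 at 100 pM E2. Arrays 2 and 3 at 10 pM were low, but the first lay at the level of the highest vehicle array, and the difference between 10 pM and vehicle was -0.12 (interval -0.28 to 0.05, adjusted p = 1.00). At 100 pM it was -0.02 (interval -0.19 to 0.14, adjusted p = 0.939).

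Bmp2 (probeset 10476395) read 4.77, 4.82 and 4.77 in vehicle cells, 4.77, 4.77 and 4.88 at 10 pM E2, and 4.77, 4.36 and 4.43 at 100 pM E2. Arrays 2 and 3 at 100 pM were the lowest of the 9, and the first lay with the vehicle and 10 pM arrays. With all arrays the difference between 100 pM and vehicle was -0.27 (interval -0.48 to -0.06, adjusted p = 0.316), and that between 100 pM and 10 pM was -0.29 (adjusted p = 0.312). Without the first 100 pM array both were called, at -0.39 (adjusted p = 0.0127) and -0.41 (adjusted p = 0.0155). The signal of Bmp2 was among the dimmest 30% of genes, where a log2 value of 5.46 marks the bound, and the other 9 members were above it. On 4 of the 9 arrays, the first 100 pM array among them, Bmp2 had the same value to the last digit given.

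The Id genes, direct targets of BMP receptor signaling, did not pass the test either. Id1 (probeset 10477169) read 7.54, 7.59 and 7.59 in vehicle cells, 7.59, 7.79 and 7.61 at 10 pM E2, and 7.57, 7.59 and 7.59 at 100 pM E2. Apart from the second 10 pM array, its values were nearly level, and the difference between 100 pM and vehicle was 0.01 (interval -0.11 to 0.13, adjusted p = 0.970). Id2 (probeset 10399691) read 7.16, 7.22 and 7.16 in vehicle cells, 7.16, 7.26 and 7.34 at 10 pM E2, and 6.79, 6.96 and 7.16 at 100 pM E2. The first and second 100 pM arrays were the lowest, and the third equalled the lower vehicle arrays. The difference between 100 pM and vehicle was -0.21 (interval -0.40 to -0.01, unadjusted p = 0.0379, limma adjusted p = 0.425) and that between 100 pM and 10 pM was -0.29 (interval -0.48 to -0.09, adjusted p = 0.265). Id3 (probeset 10509163) read 8.24, 8.35 and 8.25 in vehicle cells, 8.32, 8.33 and 8.25 at 10 pM E2, and 8.07, 8.25 and 8.12 at 100 pM E2. Here too the 100 pM group had the lowest arrays and 1 array within the other groups, with differences of -0.13 (interval -0.26 to -0.01, adjusted p = 0.438) from vehicle and -0.15 (interval -0.28 to -0.03, adjusted p = 0.377) from 10 pM. The intervals of Id2 and Id3 at 100 pM, taken singly, leave out 0, but neither passed over all genes.

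Over the 9 arrays, Id2 and Id3 had a Pearson r of 0.63 and a Spearman rho of 0.52 (exact permutation p = 0.0658 and 0.155, adjusted over the 3 pairs 0.197 and 0.155). For Id1 and Id2 these were 0.37 and 0.72 (exact permutation p = 0.302 and 0.0291, adjusted 0.326 and 0.0873), and for Id1 and Id3 they were 0.39 and 0.56 (exact permutation p = 0.326 and 0.122, adjusted 0.326 and 0.155). With all 9 arrays no pair passed after adjustment. Without the first vehicle array, rho of Id1 and Id2 was 0.87 and passed (exact permutation p = 0.0119, adjusted 0.0357), while r was 0.42 (adjusted 0.342). Id1 had the same value on 5 arrays and Id2 on 4, so tied ranks enter rho. Under median centring rho was 0.62 for Id1 and Id2, 0.18 for Id1 and Id3 and 0.28 for Id2 and Id3. Under quantile normalization it was 0.38, 0.57 and 0.37 in the same order, and none of these passed. The points share their dose groups: on deviations from the group means r was 0.11 for Id2 and Id3, 0.16 for Id1 and Id2, and 0.29 for Id1 and Id3. In the same order, rho on these deviations was 0.28, 0.29 and 0.47. The Pearson value for Id2 and Id3 was 0.20 without the first 100 pM array and 0.71 without the second, with rho at 0.30 and 0.67. Without both of these arrays, the farthest from the median of Id2, r was 0.25 and rho 0.49. With the first vehicle array and the second 10 pM array, farthest for Id1, left out, r was 0.87 and rho 0.83 for Id1 and Id2 (exact permutation p of r = 0.0476, adjusted 0.143), and r was 0.49 and rho 0.34 for Id1 and Id3.

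The wider pathway was described with 56 further genes in 6 lists, of which 54 were measured. None of the 54 was called in any of the 3 comparisons or in the F test. Of all genes, 1.13% were called between 100 pM E2 and vehicle and 0% between 10 pM E2 and vehicle. Between 100 pM and 10 pM E2 it was 0.833%, and in the F test 0.843%. With shares this low, the lack of calls does not set the 54 apart. In the comparison of 100 pM E2 with vehicle 22 were higher and 32 lower, with a smallest limma adjusted p of 0.162. There 5 had an unadjusted p below 0.05, against 2164 of all 19938 genes. In 9 of the 54 the arrays of 100 pM E2 and vehicle did not overlap, against 12.5% of all genes. At an unadjusted p below 0.05 there were 2 of the 54 between 10 pM E2 and vehicle, against 705 of all genes. Between 100 pM and 10 pM E2 there were 5, against 2028 of all genes. The median of the 54 was -0.02 for 100 pM against vehicle, 0.00 for 10 pM against vehicle and -0.02 for 100 pM against 10 pM. For all genes it was 0.00 in each.

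Among 12 other ligands, the values named by the smallest F test p were those of Bmp15 and Gdf10. Bmp15, known as an oocyte factor, read 4.31, 4.46 and 4.11 in vehicle cells, 4.53, 4.56 and 4.57 at 10 pM E2, and 4.71, 4.62 and 4.49 at 100 pM E2, a dim signal, with a difference of 0.31 between 100 pM and vehicle (adjusted p = 0.184). Gdf10, which encodes BMP3b, differed by -0.14 (adjusted p = 0.503). Neither passed the test.

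Among 12 receptors and co-receptors, Bambi, a pseudoreceptor that blocks BMP and activin receptors and is itself a BMP target, read 7.77, 7.74 and 7.93 in vehicle cells, 7.72, 7.77 and 7.74 at 10 pM E2, and 7.67, 7.53 and 7.58 at 100 pM E2. All 100 pM arrays of Bambi were below all vehicle arrays, but the difference of -0.22 (interval -0.35 to -0.09) had an adjusted p of 0.162. Eng, the co-receptor endoglin, differed by 0.10 (adjusted p = 0.588). The receptor genes themselves, Bmpr1a, Bmpr1b and Bmpr2 among them, were not called at either dose.

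Among 12 measured secreted modulators, Twsg1, which encodes the chordin-binding protein twisted gastrulation, read 9.29, 9.31 and 9.34 in vehicle cells, 9.29, 9.30 and 9.36 at 10 pM E2, and 9.21, 9.24 and 9.19 at 100 pM E2. Its 100 pM arrays were the lowest 3, with a difference of -0.10 from vehicle (interval -0.18 to -0.02, adjusted p = 0.330). Dand5, a gene of the Cerberus and DAN family of antagonists, differed by 0.06 between 100 pM and vehicle (adjusted p = 0.841) and by 0.23 between 10 pM and vehicle (adjusted p = 1.00).

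The 4 other genes around Tll1, which are Bmp1, Tll2, Pcolce and Pcolce2, had differences between -0.05 and 0.10 at 100 pM against vehicle. Tll2, the other tolloid-like protease, differed by 0.06 (interval -0.04 to 0.16, adjusted p = 0.669) and Pcolce2, an enhancer of procollagen C-proteinase activity, by 0.10 (interval -0.01 to 0.21, adjusted p = 0.514). Of Tll1 and these 4 genes, which include enhancers as well as proteases, only Tll1 was called at 100 pM E2 against vehicle. Of all genes 1.13% were called there, so the lack of calls among the 4 does not set Tll1 apart. Differences between genes were not tested.

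Among the 8 Smads and Smad ubiquitin ligases, Smad5, a receptor Smad of this pathway, read 8.92, 8.93 and 8.95 in vehicle cells, 8.94, 8.95 and 8.94 at 10 pM E2, and 8.89, 8.79 and 8.85 at 100 pM E2. The 100 pM arrays were below the rest by little, with a difference of -0.09 from vehicle (interval -0.17 to -0.01, adjusted p = 0.378). Smad4, the common partner, differed by -0.01 (adjusted p = 0.921). Among 6 measured further targets, Hey1, a bHLH repressor, differed by -0.22 (adjusted p = 0.458) and Msx2, a homeobox gene, by 0.11 (adjusted p = 0.532), neither past the test.

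**Figure D3:**
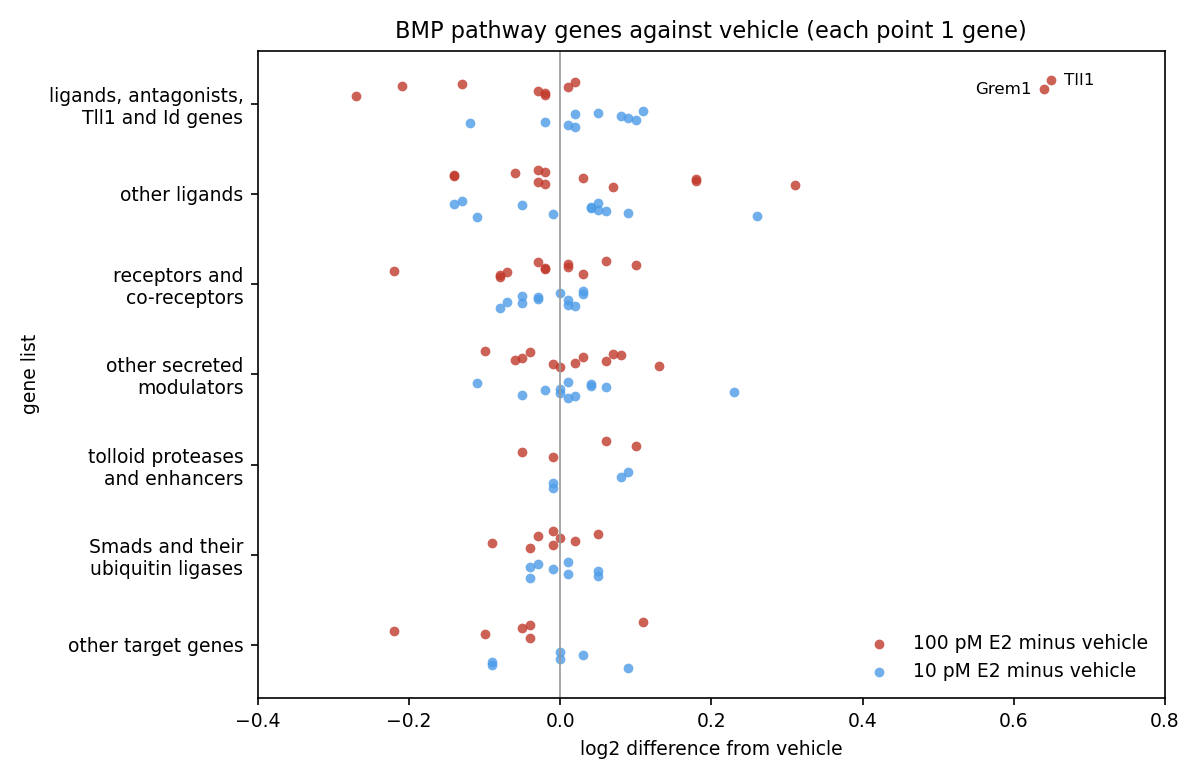
Log2 differences from vehicle of the 10 genes (top row) and of the 54 measured genes in 6 pathway lists, with 1 point per gene, red for 100 pM E2 and blue for 10 pM E2. Grem1 and Tll1 at 100 pM E2 stand at 0.64 and 0.65, while the 54 list genes lie between -0.22 and 0.31 at that dose.

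The genes whose values were most like those of Grem1 over the 9 arrays, out of 19926 compared, were Npr3, a natriuretic peptide receptor (Pearson r 0.984), Otud6b, a deubiquitinase (0.975), Pmaip1, a proapoptotic BCL2 family gene (0.972), Tmeff2, a transmembrane protein gene (0.967), and Ptprn, a receptor-type phosphatase family gene (0.966). For Tll1 they were Cpe, which encodes carboxypeptidase E, Galnt18, a glycosyltransferase gene, Gsto1, a glutathione transferase gene, and Ccnd1, which encodes cyclin D1 (0.980 each), and Npr3 (0.978). Tll1 ranked 18 among the genes most like Grem1, with r = 0.958, and Grem1 ranked 30 among those most like Tll1. These correlations describe 9 points that share 3 dose groups, and any gene that differs mainly between the 100 pM arrays and the rest has a high value. Of the 9 genes, Npr3 differed by 0.43 between 100 pM E2 and vehicle, Ccnd1 by 0.44, Gsto1 by 0.50 and Otud6b by 0.18, all below the differences of Grem1 and Tll1.

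**Figure D4:**
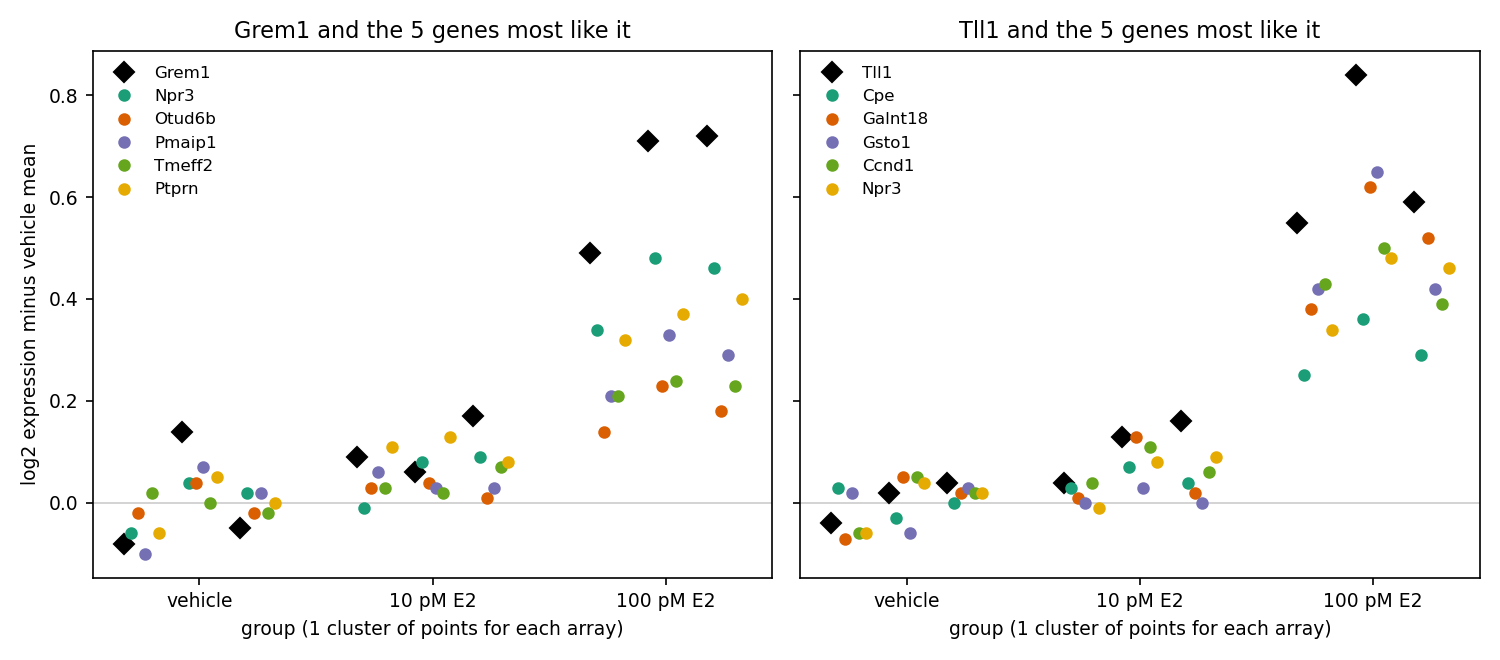
Log2 expression minus the vehicle mean (vertical axis) on each array for Grem1 (left, black diamonds) and Tll1 (right, black diamonds) with the 5 genes most like each (coloured circles); each group has 3 clusters of points, 1 per array. All of these genes are higher on the 100 pM E2 arrays than on the others, and Grem1 and Tll1 lie above their nearest genes there.

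Across the whole series, array medians lay between 6.17 and 6.20. The 226 genes called between 100 pM E2 and vehicle numbered between 88 and 259 with 1 array left out, the lowest without the first vehicle array, and the 166 called between 100 pM and 10 pM numbered between 30 and 178, the lowest without the first 10 pM array. Of 8 mesenchyme markers all were above the dimmest 30% of genes, and their mean level was 11.28 to 11.30 on the vehicle arrays, 11.29 to 11.31 at 10 pM E2 and 11.20 to 11.24 at 100 pM E2. Among them Pdgfra fell by 0.45 (adjusted p = 0.00359) and Col3a1 fell by 0.18 (adjusted p = 0.0469) at 100 pM against vehicle. Of 10 epithelial markers 7 were above the dimmest 30%, and Cdh1, Epcam and Krt5 were not. None of the 10 was called against vehicle, where Krt18, a keratin, differed by 0.43 at 100 pM E2 with no overlap of the arrays (adjusted p = 0.112), and Krt18 rose by 0.57 at 100 pM against 10 pM (adjusted p = 0.0428). The list had means of 5.93 to 6.05 on vehicle, 5.96 to 5.99 on 10 pM and 5.99 to 6.12 on 100 pM arrays. All 10 macrophage markers, of which 8 were above the dimmest 30%, were lower at 100 pM than in vehicle. C1qb passed the test (-0.51, limma adjusted p = 0.0433), with means of 5.69 in vehicle and 5.18 at 100 pM, to either side of the dim bound of 5.46. The mean of the list was 5.87 to 6.03 on vehicle, 5.75 to 5.92 on 10 pM and 5.64 to 5.70 on 100 pM arrays. Of 8 endothelial markers 5 were above the dimmest 30%, and Emcn rose by 0.82 and Kdr fell by 0.98. The list means were 6.02 to 6.09 on vehicle, 6.01 to 6.06 on 10 pM and 5.98 to 6.00 on 100 pM arrays. Of 8 smooth muscle markers none was called. At 100 pM E2 against vehicle, Pdgfra, Col3a1, C1qb, Kdr and Emcn were thus called beside Grem1 and Tll1. The array means of the mesenchyme, macrophage and endothelial lists were lower without overlap. In the mesenchyme list, however, 2 genes were higher and 6 lower, with a median difference of -0.02. The endothelial list had 4 higher and 4 lower, with a median of -0.04. The lower means of these 2 lists thus do not describe all of their genes. The part of these markers, and of Krt18, in the results for Grem1 and Tll1 was not tested. In RNA from whole dishes, fewer cells of a type and less RNA per cell cannot be told apart.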

How the data were processed

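The authors deposited 1 log2 expression value for each probeset and array, made from the scans with GCOS and the Gene Expression Console; the summarization method is not given in the sources used here, and that the scale is log2 was read from the range of the values. Direction is that of signal intensity, the genes were not centred, and neither scale nor centring was checked against scanner files. Groups and replicate numbers came from the sample titles, and whether replicates were separate cultures is not given there, so the spread behind the p-values is that of these samples and may be technical. The number of arrays limits precision.

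The platform annotation gave 1 gene symbol for 21789 of 35556 probesets; the 1621 with several symbols and the 12146 with none listed were left out. The probeset of highest mean stood for each of 19938 genes. In limma 3.58.1 (R 4.3.3, lmFit and default eBayes), all 9 arrays entered 1 linear model of group means, with the moderated F test and 3 pairwise contrasts, two-sided. A gene was called where its p, after Benjamini-Hochberg adjustment over all genes, was below 0.05, and the procedure was tested on simulated data. Correlations of the Id genes used exact permutation over all pairings, two-sided, or within groups for deviations from group means. The F test follows the study's one-way analysis of variance in moderated form, and the plain form was an alternative. By the study's own account, the effects found in its analysis of variance did not survive Benjamini-Hochberg correction. In the plain form here, no member was called.

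The members and lists were chosen with earlier results of these data known. Besides the 10 members, the text names every pathway gene called, or the 2 of smallest F test p in a list with none called, and the 5 genes of highest Pearson r to Grem1 and to Tll1; marker genes outside this rule were named after their values were seen. Promoter windows are those of RefSeq on GRCm38.p6, searched on both strands. Alternatives were other scalings, filters, probeset choices, weights and fits, a replicate block, a looser threshold and leaving out arrays. Leaving out the 2 arrays farthest from the median was chosen after seeing the data. Figures were drawn with matplotlib 3.10.9.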

Additional observations from a re-analysis of the deposited data

How the results depend on the processing

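The 2 members called at 100 pM E2 against vehicle, Grem1 and Tll1, became 0 when only the compared groups were fitted (adjusted p = 0.0703 and 0.0589) and 0 in the unmoderated analysis (0.0710 and 0.0620), and the count lay between 2 and 3 with 1 array left out. At 100 pM against 10 pM the 2 members became 0 with all probesets tested, 0 with only the compared groups and 0 in the unmoderated analysis, 1 (Tll1) without the second vehicle and second 100 pM arrays together, and 0 to 3 with 1 array left out. In the F test the 2 became 1 (Tll1) with all probesets tested, 0 in the unmoderated analysis, 1 (Tll1) without those 2 arrays, and 1 to 3 with 1 array left out. The third gene was Bmp2, without the first 100 pM array. At 10 pM against vehicle no alternative called a member, and none called any of the 54 pathway genes. The cause of these changes was not tested, except that fitting fewer groups uses fewer arrays.

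Signs turned for differences near 0 that were not called. Bmp4 at 10 pM against vehicle was -0.01 under quantile normalization and without the second vehicle and second 100 pM arrays, and -0.01 to 0.03 with 1 array left out. Bmp7 at 100 pM against vehicle was 0.02 without those 2 arrays. With 1 array left out, differences at 100 pM against vehicle ran from -0.04 to 0.01 for Bmp4, -0.02 to 0.05 for Nog and -0.01 to 0.02 for Id1, those at 10 pM against vehicle from -0.02 to 0.04 for Bmp2 and -0.02 to 0.16 for Nog, and that at 100 pM against 10 pM from -0.13 to 0.04 for Nog. For single members, 343 of 357 values under the other alternatives kept their direction and their side of the threshold, as did 252 of 270 with 1 array left out. Most of these values belong to results that were not called, so the totals say little about the calls of Grem1 and Tll1. Those calls were lost in 11 values under the other alternatives. With 1 array left out they were lost in 8, all of them at 100 pM against 10 pM.

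Counts over all genes moved more. The 226 at 100 pM against vehicle became 343 without the dimmest 30% of genes, 119 with all probesets, 349 with eBayes trend and robust, 10 with only the compared groups, 30 unmoderated, 365 at an adjusted p below 0.10 and 76 without the second vehicle and second 100 pM arrays. The 166 at 100 pM against 10 pM became 291, 30, 284, 1, 1, 302 and 64 in the same order. The 168 of the F test became 310, 65, 308, 1, 310 and 51, with no fit of compared groups, and ran from 85 to 176 with 1 array left out. Same-numbered arrays of different groups had correlations of their deviations from -0.11 to 0.20, with 1 of 9 pairs over 0.1, so the numbers were not taken to pair the samples. With the replicate block the members called stayed 2, 0, 2 and 2, and the counts over all genes were 168 at 100 pM against vehicle, 1 at 10 pM against vehicle, 133 at 100 pM against 10 pM and 122 in the F test; median centring also gave 1 at 10 pM against vehicle.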

Other observations

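Many genes held the same value, to the last digit given, on more than 1 array. This was so for 14490 of 19938 genes (72.7%) and for 8 of the 10 members, the exceptions being Grem1 and Tll1, whose 9 values all differed. Id1 and Chrd had 1 value on 5 arrays, Bmp2, Nog and Id2 on 4, Bmp4 and Bmp7 on 3 and Id3 on 2. Among the 226 genes called between 100 pM E2 and vehicle, 35 (15.5%) held a repeated value. Repeated values within a group lower its spread, and their part in the calls was not tested.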
